A study of Glycine max with 2 samples.

Results

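The outermost 2 Mb at each end of 19 soybean chromosomes were examined for sites bound by the YAB1-like protein. A peak was counted as a member when its summit lay within the first 2000000 bp of a chromosome, called the left end here, or within the last 2000000 bp before the last peak end of that chromosome, called the right end. The rule gave 38 ends and 4713 peaks, 15.0% of the 31461 peaks in the list and 16.3% of those on these chromosomes. The rest of the same chromosomes held 24245 peaks. Chromosome 13 (2300 peaks) and the unplaced scaffolds (203 peaks) were outside the comparison. The chromosome lengths were not in the files, so the right ends start from the last peak and not from the true tip.

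The peaks come from chromatin immunoprecipitation followed by sequencing (ChIP-seq) on soybean (Glycine max) of the cultivar Williams 82, using whole seeds at the globular stage of the embryo. Such seeds, 1.0 to 1.5 mm long, contain embryo, endosperm and seed coat together, so a site cannot be placed in any of these tissues. The antibody was a rabbit polyclonal one raised against a peptide of the protein, and its specificity was not checked here. There was 1 ChIP library and 1 input library, total chromatin taken without antibody; the peak list belongs to the ChIP library, and no file of the input was used. No second replicate was analysed here, so the values below have no replicate check, and all intervals are 95% intervals of counting error. They treat peaks as independent although peaks are grouped along chromosomes, and so understate how far regions vary; PCR copies are not independent molecules either.

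YABBY proteins are plant transcription factors with a zinc finger and a DNA-binding domain that resembles an HMG box. In Arabidopsis, members of the family specify the lower side of leaves and floral organs, and INNER NO OUTER is needed for the outer integument of the ovule, which becomes part of the seed coat. Soybean chromosomes carry most of their genes toward the ends, while the middle of most chromosomes is repeat-rich heterochromatin around the centromere. Binding sites of transcription factors are commonly found near genes.

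Sites were more closely packed in the ends than in the rest. The ends held 62.0 peaks per Mb (60.3 to 63.8), against 29.4 per Mb in the rest (29.0 to 29.7), a ratio of 2.11 (2.05 to 2.18). Peaks covered 2.71% of the end sequence and 1.29% of the rest. All 38 ends were denser than the rest of their own chromosome, and in 37 of them the counting intervals did not overlap. The exception was the right end of chromosome 15, with 33.5 peaks per Mb (26.0 to 42.5) against 27.0 per Mb in the rest of that chromosome. By chromosome, the ratio of both ends together to the rest averaged 2.14 ± 0.377 (SD, 19 chromosomes). It was highest on chromosome 4, at 2.82, and lowest on chromosome 11, at 1.48, where the rest was itself the densest of the 19 at 43.1 peaks per Mb.

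**Figure D1:**
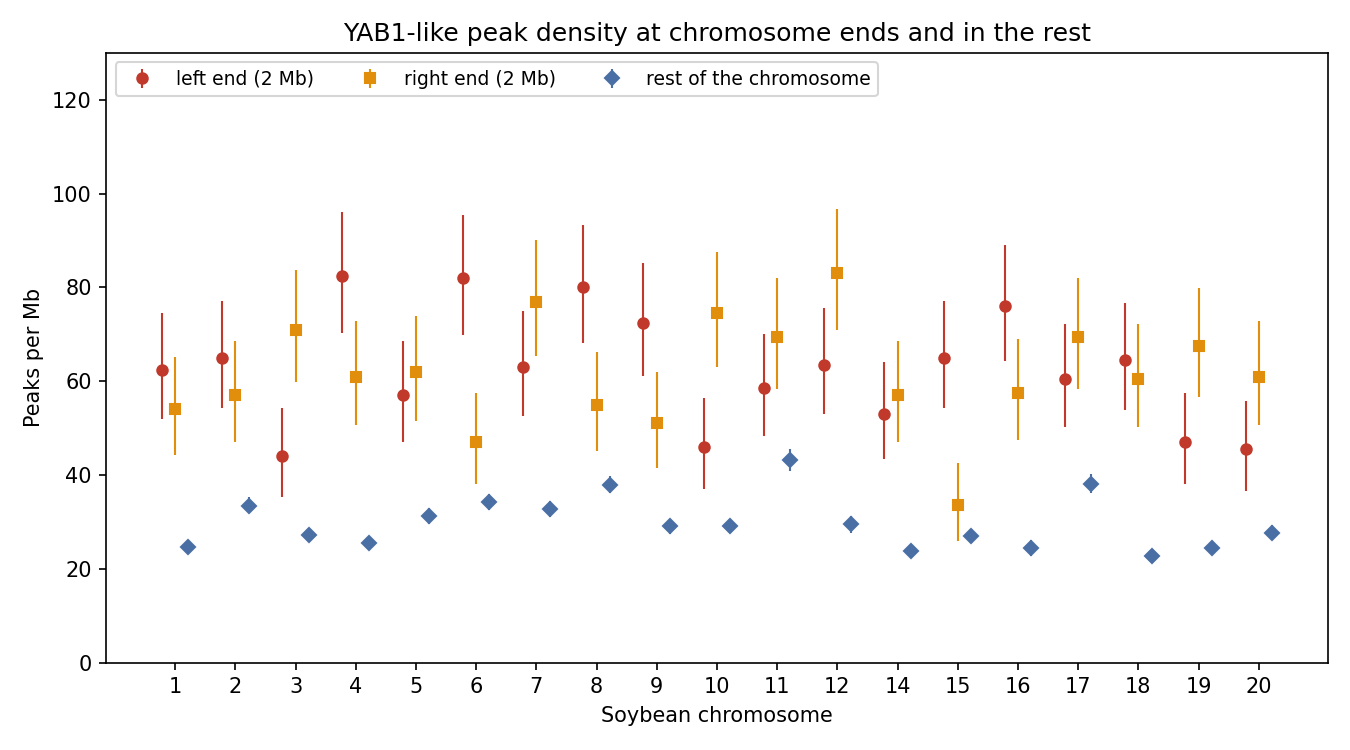
Peaks per Mb in the left end, the right end and the rest of each of 19 chromosomes (x axis, chromosome 13 left out). Points are densities and bars are exact Poisson 95% intervals; every end lies above the rest of its chromosome, and the bars meet the rest only at the right end of chromosome 15.

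The 38 ends differed among themselves more than counting error does. They held 124 ± 23.4 peaks each (mean and SD, 38 ends), where the square root of the mean, the spread of pure counting, is 11.1. The most crowded ends were the right end of chromosome 12 with 166 peaks (142 to 193), the left end of chromosome 4 with 165, the left end of chromosome 6 with 164, the left end of chromosome 8 with 160 and the right end of chromosome 7 with 154. The order among these 5 was not resolved, since their counts lie within each other's intervals. The fewest peaks were in the right end of chromosome 15, with 67 (51.9 to 85.1). It was followed by the left ends of chromosomes 3, 20 and 10 with 88, 91 and 92 peaks, and by the left end of chromosome 19 and the right end of chromosome 6 with 94 each. The other 27 ends held between 102 and 152 peaks.

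A crowded end did not go with a crowded opposite end. By the difference in counts chromosome 6 had the most unequal ends, 164 peaks on the left (140 to 191) and 94 on the right (76.0 to 115). By their ratio it was chromosome 15, with 130 peaks on the left and 67 on the right. On chromosomes 3, 6, 8, 10 and 15 the counting intervals of the left and right ends did not overlap. The left end held more peaks on 9 chromosomes and the right end on 10, and the means were close, 125 ± 24.4 and 123 ± 23.0 peaks (SD, 19 ends each). Over the 19 chromosomes the counts of left and right ends had a Pearson r of -0.44 and a Spearman rho of -0.55, given as a description of 19 chromosomes of 1 library; without the 2 chromosomes farthest from the median left count, r was -0.44. Between the density of both ends and that of the rest, r was 0.32 and rho was 0.41 over the same 19 chromosomes.

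High density was not limited to the ends. The rest was divided into 403 windows of 2 Mb, with a median of 32 peaks (quartiles 14 and 99), against a median of 123 in the ends (quartiles 111 and 139). Of these windows, 239 (59.3%) held fewer than 50 peaks, and no end was that sparse. Yet 144 windows of the rest (35.7%) held at least as many peaks as the sparsest end, 71 (17.6%) held at least as many as the median end, and 16 held more than the most crowded end, up to 199 peaks. The counts of the ends lay within the upper range of the rest.

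**Figure D2:**
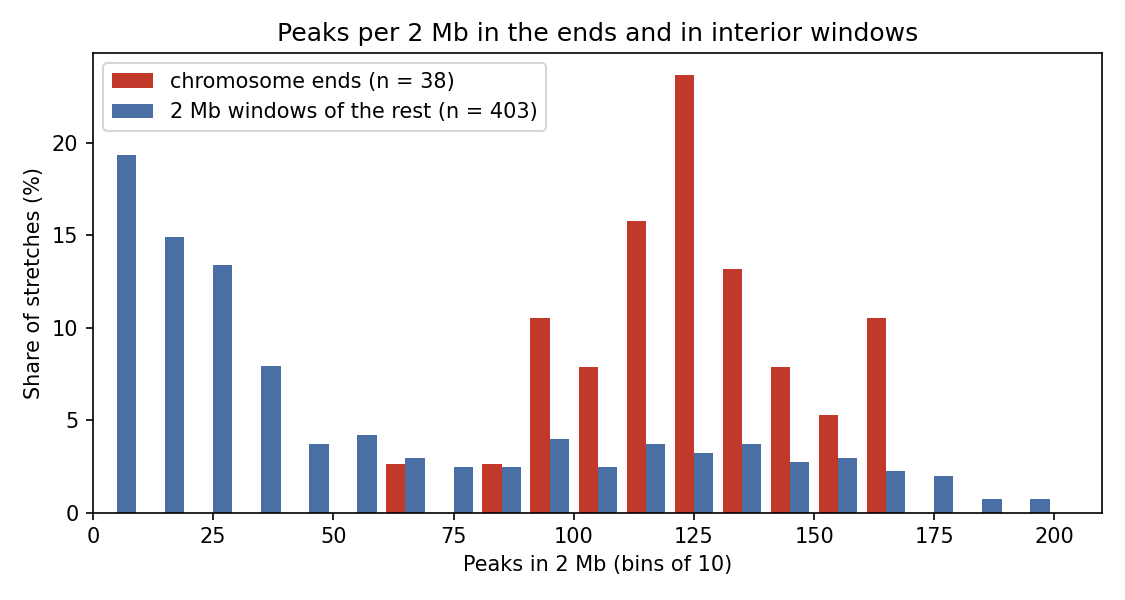
Share of stretches (y axis, %) by number of peaks in 2 Mb (x axis, bins of 10) for the 38 ends and for 403 interior windows of the same 19 chromosomes. The ends run from 67 to 166 peaks, while the interior windows run from 0 to 199 with 59.3% below 50.

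Within the ends, density was lowest at the tip. With both sides pooled, it was 47.3 peaks per Mb (44.2 to 50.5) in the outermost 0.5 Mb, 62.9 in the next 0.5 Mb, 66.5 between 1.0 and 1.5 Mb and 71.4 (67.6 to 75.3) between 1.5 and 2.0 Mb. The last of these was the highest of the 20 bins out to 10 Mb, although its interval overlapped that of the next bin inward, 67.7 per Mb (64.0 to 71.5). Density then stayed above 55 per Mb out to 6 Mb and was 33.3 per Mb (30.7 to 36.0) between 9.5 and 10 Mb. The stretch from 2 to 4 Mb held 65.8 peaks per Mb (64.0 to 67.7), slightly more than the 62.0 of the ends.

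The inner Mb held more peaks than the outer Mb in 32 of the 38 ends, and over all ends there were 2619 peaks in the inner Mb and 2094 in the outer Mb. The 6 ends with the opposite order were the right ends of chromosomes 3, 8, 11, 14, 17 and 19. The right end of chromosome 3 was the most weighted to the tip, with 89 peaks in the outer Mb and 53 in the inner Mb; its outermost 0.5 Mb held 52 peaks, the highest value among the 38 ends, whose median was 23 and whose lowest was 14. These right-end values are measured from the last peak, so any peak-free tip beyond it is not counted.

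**Figure D3:**
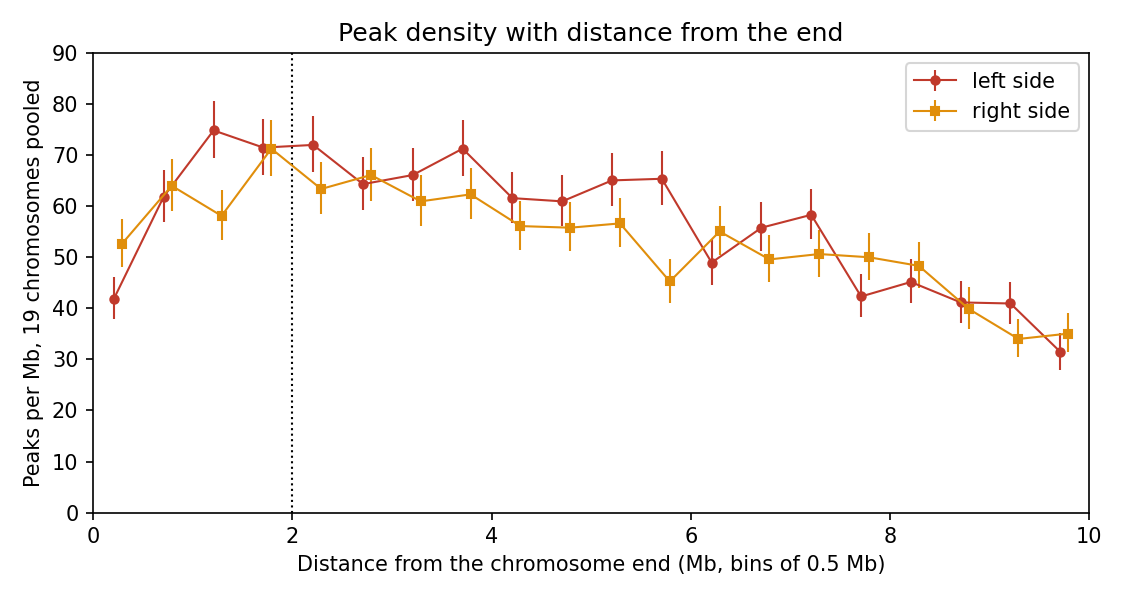
Peaks per Mb (y axis, 19 chromosomes pooled, exact Poisson 95% bars) by distance from the chromosome end in bins of 0.5 Mb (x axis), for left and right sides. The dotted line marks the 2 Mb limit of the ends; the outermost bin is the lowest of the first 4 on both sides, and density declines beyond about 6 Mb.

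The left ends, whose distances are counted from the start of the sequence, show the tip at finer scale. Only 3 peaks lay in the outermost 25 kb of the 19 left ends, 6.32 per Mb (1.30 to 18.5). Density was 18.9 per Mb between 25 and 50 kb, 24.2 between 50 and 100 kb, 34.2 between 100 and 200 kb, 44.7 between 200 and 300 kb and 57.4 (47.1 to 69.2) between 300 and 400 kb. The outermost peak of a left end lay at a median of 45.1 kb, and beyond 100 kb on 4 of the 19 chromosomes. It was nearest on chromosome 7, where the summit of chr7:14060-14311 was at 14.1 kb, with 19 ChIP fragments over 4.33 expected. It was farthest on chromosome 17, at 266 kb, in chr17:265863-266135, with 17 fragments over 3.71 expected. How many reads can be placed in these tips was not tested.

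The strength of the called sites was close to that of the rest. The caller's fold is the ratio of the ChIP pileup, the number of overlapping fragments at the summit, to the expected pileup, each with a pseudocount of 1. Its median was 4.50 (quartiles 3.92 and 5.56) in the ends and 4.51 (3.92 and 5.49) in the rest, a difference of -0.01 (-0.06 to 0.02). Median fold was higher in the ends on 8 chromosomes and lower on 11, with 4.30 to 4.71 in the ends and 4.41 to 4.62 in the rest. The median pileup was 20 fragments in both sets; for a single peak, a count of 20 has a counting interval of 12.2 to 30.9. All peaks had passed the same cutoff, which leaves medians little room to differ. The outer Mb had a median fold of 4.44 (4.40 to 4.51) and the inner Mb 4.55 (4.50 to 4.62), while single ends ranged from 4.20 in the left end of chromosome 2 to 4.86 in the right end of chromosome 1. Over the 38 ends, the number of peaks and the median fold had r = -0.19 and rho = -0.20, a description with no test.

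Sites with a fold of at least 10 were about as frequent among the peaks of the ends as in the list. A fold of at least 10 was reached by 114 of the 4713 end peaks, 2.42% (2.02% to 2.90%), against 599 peaks or 2.47% (2.28% to 2.67%) in the rest and 2.48% of the whole list. A fold of at least 6 was reached by 19.4% of the end peaks (18.3% to 20.5%) and 17.9% of the rest (17.4% to 18.4%), against 18.2% of the list. At this lower cutoff the ends were slightly higher than the rest, by 1.49 percentage points (0.282 to 2.74). The stretch from 2 to 4 Mb had 18.5% (17.4% to 19.6%), an interval that overlapped those of the ends and of the rest. Every end had at least 1 peak at a fold of 10 or more, and the number per end ran from 1 to 7, with a median of 3. The right end of chromosome 16 had 7, and the left ends of chromosomes 15 and 16 had 6 each. The strongest peak of an end had a fold of 10.3 at the lowest, in the left end of chromosome 2, and of 12.8 at the median.

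The extreme of the list was in the ends. A fold of at least 20 was found in 4 end peaks, 0.0849% of them, and in 11 peaks of the rest, 0.0454%, against 0.0540% of the list; with counts this small the Wilson intervals overlap (0.0330% to 0.218% in the ends, 0.0253% to 0.0812% in the rest). These 4 were also among the 10 peaks of highest fold in the list, yet only 10 of the 100 highest were end peaks, while end peaks were 15.0% of the list. The right end of chromosome 18 held the strongest peak of all, chr18:57421417-57422508. At its summit 198 ChIP fragments stood over 3.85 expected, which is 51.4 times as many without the pseudocount (44.5 to 59.1). Its neighbour chr18:57415687-57416538 reached 141 fragments, 36.6 times the expected pileup (30.8 to 43.2). These peaks lay 571 and 577 kb from the last peak end. Their end held 121 peaks with a median fold of 4.50, and no other of these had a fold of 10 or more. Intervals of ratios to the expected pileup, here and below, hold counting error of the ChIP fragments only. They take the expected pileup of a few fragments as exact, so they are too narrow.

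The right end of chromosome 8 held the next in rank, chr8:47622420-47623790, 144 kb from the last peak end. Its 164 fragments were 48.7 times the 3.37 expected (41.5 to 56.7). Beside it lay chr8:47624349-47625230, with a fold of 13.4, and these were the only 2 peaks of that end at a fold of 10 or more. In the left end of chromosome 15, chr15:1008560-1009886 had 105 fragments, 33.1 times the 3.17 expected (27.1 to 40.0). Weaker peaks with a fold of at least 10 lay at lower coordinates, the nearest of them chr15:1006377-1007003 with a fold of 10.2. The same end also held chr15:1901126-1901910, at 19.5 times the expected pileup (15.3 to 24.4).

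The remaining 5 of the 10 strongest end peaks lay on as many other chromosomes. In the left end of chromosome 10, chr10:1996025-1996792 had 81 fragments, 24.7 times the expected pileup (19.6 to 30.7). It was the only peak of that end at a fold of 10 or more, and at 1996 kb from the start it lay close to the limit of the ends. The pileup was 21.3 times the expected one (16.6 to 27.0) in chr16:36143078-36144628 and 18.5 times (14.4 to 23.5) in chr9:1564464-1565450. It was 18.2 times (13.7 to 23.6) in chr5:40472967-40473567, over a control at its lowest level. In chr1:55145474-55146552 it was 16.3 times (13.1 to 19.9), over a higher expected pileup of 5.78. Positions count from 1 on the sequence names of the deposited list, and no build is named for them. The genes beside these peaks were not analysed. Pileups of peaks picked for high fold may be overstated.

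**Figure D4:**
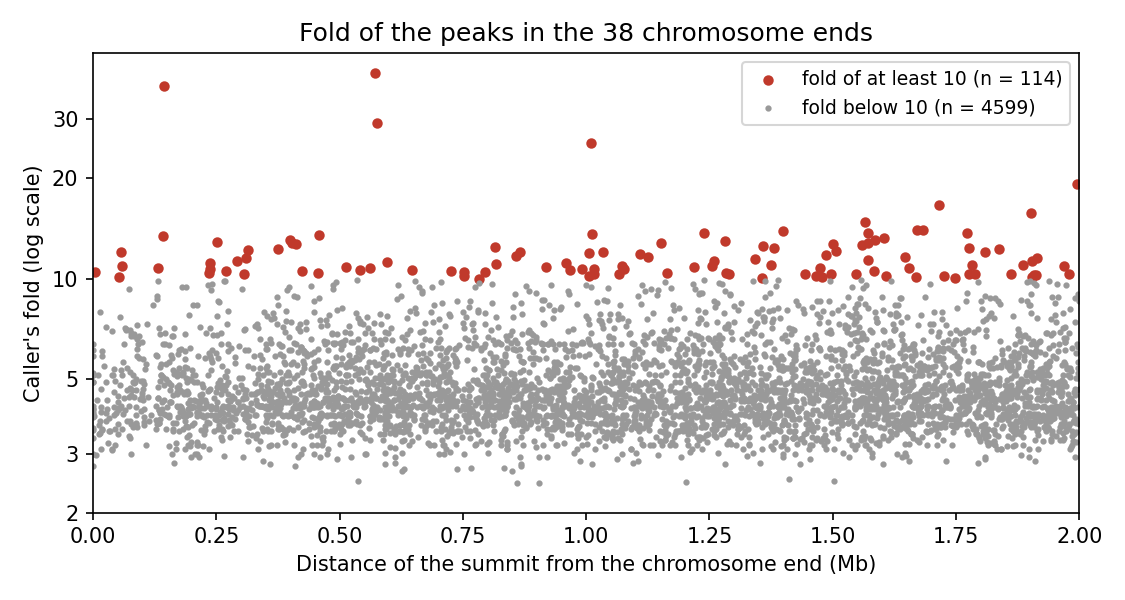
Caller's fold (y axis, log scale) of each of the 4713 end peaks by the distance of its summit from the chromosome end (x axis, Mb). The 114 peaks with a fold of at least 10 are spread over the whole 2 Mb, 43 in the outer and 71 in the inner Mb, and the 4 peaks above 20 stand apart from the others.

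Strong sites were not always alone. Of the 114 peaks with a fold of at least 10, 56 (49.1%) had another summit within a chain of steps of at most 2 kb, against 38.7% of all end peaks. There were 10 neighbouring pairs of such strong peaks within 10 kb of each other, among them those named on chromosomes 8, 15 and 18. The peak named on chromosome 9 was also in such a pair, with chr9:1570347-1571575, which had a fold of 12.8. Among all neighbouring summits, strong or not, 56.0% in the ends and 52.3% in the rest lay within 10 kb. Neither the share in chains nor the number of strong pairs was set against strong peaks of the rest, so both only describe the ends. Strong peaks were also wider, with a median of 734 bp against 368 bp in the other end peaks, but width and fold come from the same pileup.

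Peak widths in the ends were close to those in the rest. The median width was 374 bp in the ends (quartiles 289 and 512) and 374 bp in the rest (291 and 514), a difference of 0 bp (-7.28 to 6.71). Peaks wider than 1000 bp numbered 114 in the ends, 2.42% (2.02% to 2.90%), and 575 in the rest, 2.37% (2.19% to 2.57%), against 2.38% of the list. Their median fold in the ends was 6.91. The widest end peak, chr2:47440565-47444562, spanned 3998 bp and had 39 fragments at its summit, 8.10 times the expected pileup (5.76 to 11.1). The next, chr14:1170451-1174312, spanned 3862 bp at 11.5 times (8.40 to 15.4), and the third, chr7:43328958-43331384, spanned 2427 bp at 15.8 times (12.1 to 20.3).

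Although the ends were more than 2 times as dense as the rest, close neighbours were about as frequent in both. Of 4675 pairs of neighbouring summits in the ends, 1060 lay within 2 kb of each other, 22.7% (21.5% to 23.9%). In the rest this held for 5364 of 24226 pairs, 22.1% (21.6% to 22.7%), a difference of 0.532 percentage points (-0.758 to 1.86). The share was higher in the ends on 7 chromosomes and lower on 12. Wider spacings did differ. The median distance between neighbours was 7.54 kb in the ends and 8.92 kb in the rest. Within 50 kb lay 93.2% of end neighbours, against 85.8% in the rest. In the stretch from 2 to 4 Mb the median was 6.86 kb and the share within 50 kb 94.2%, so such spacings were not particular to the ends. The longest stretch without a summit, counting those beside the limits of an end, was between 65.2 and 266 kb in each end, with a median of 133 kb. Between neighbouring summits the longest distance was 224 kb in the ends, 804 kb in the stretch from 2 to 4 Mb and 3143 kb in the rest. The last is a maximum over far more sequence, and an end of 2 Mb could not hold it.

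Windows of the rest picked for high density had more close neighbours than the ends. In 143 windows of 1 Mb with at least 61.5 peaks, the density of the median end, 24.3% of 10987 neighbouring pairs lay within 2 kb (23.5% to 25.2%), and the ends minus these windows gave a difference of -1.66 percentage points (-3.09 to -0.207). These windows were picked for many peaks, and at 77.8 peaks per Mb they were denser than the ends. The stretch from 2 to 4 Mb was not picked for its count and held 65.8 peaks per Mb. There 23.0% of pairs lay within 2 kb (21.9% to 24.2%), close to the 22.7% of the ends (21.5% to 23.9%). In the ends, 1824 peaks (38.7%) stood in 764 chains of summits at most 2 kb apart, and 736 peaks (15.6%) in the 220 chains of 3 or more. In the rest, 38.5% of peaks stood in chains and 13.8% in chains of 3 or more. The longest chains of the ends had 6 summits and occurred 5 times, on the right of chromosomes 3, 11, 12 and 20 and on the left of chromosome 8, with no fold above 9.29. The longest chain in the rest had 12.

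The control was at its lowest level less often in the ends. For each peak the caller takes the expected pileup from the background around the site, or from its genome-wide average where that is higher, here 3.08 fragments. In 34.6% of the list the expected pileup was a whole multiple of 0.481 fragments (within 0.0004). Under the caller's scoring, a control library scaled down to the ChIP library would give such a step. That is inferred from the values, and which library served as control is not stated. The expected pileup stood at the floor of 3.08 fragments in 559 end peaks, 11.9% (11.0% to 12.8%), against 4673 peaks or 19.3% (18.8% to 19.8%) in the rest and 18.0% of the list. The difference was -7.41 percentage points (-8.44 to -6.34). With both ends of a chromosome pooled, the share was lower in the ends on 19 of 19 chromosomes. Among single ends it ran from 3.51% in the right end of chromosome 2 to 25.5% in the right end of chromosome 6. That right end of chromosome 6 lay above the rest of its chromosome, at 14.9%. The left end of chromosome 19 was also slightly above its rest, 19.1% against 18.9%. The 143 dense windows of the rest had a share of 12.7% (12.1% to 13.3%), and the ends minus these windows differed by -0.799 points (-1.89 to 0.331). The share at the floor was thus lower in dense stretches of both kinds, and its part in the density of called peaks was not tested.

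Otherwise the expected pileups were close, with a median of 3.48 fragments in the ends and 3.43 in the rest. At least 2 times the floor was reached by 80 end peaks, 1.70% (1.37% to 2.11%), and 1.48% of the rest (1.33% to 1.64%), against 1.56% of the list. The highest in the ends was 11.6 fragments, in chr15:1203052-1203365, where the 30 ChIP fragments were only 2.60 times as many (1.75 to 3.71). Next came chr12:39178936-39179595 with 8.69 expected and a ratio of 5.29, and chr4:1884144-1884845 with 8.67 expected and a ratio of 3.92. An expected pileup of 8.19 was found in chr5:40868512-40870221, with a ratio of 7.33, and in chr1:522765-523550, with a ratio of 4.03. A high expected pileup lowers the ratio by construction.

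**Figure D5:**
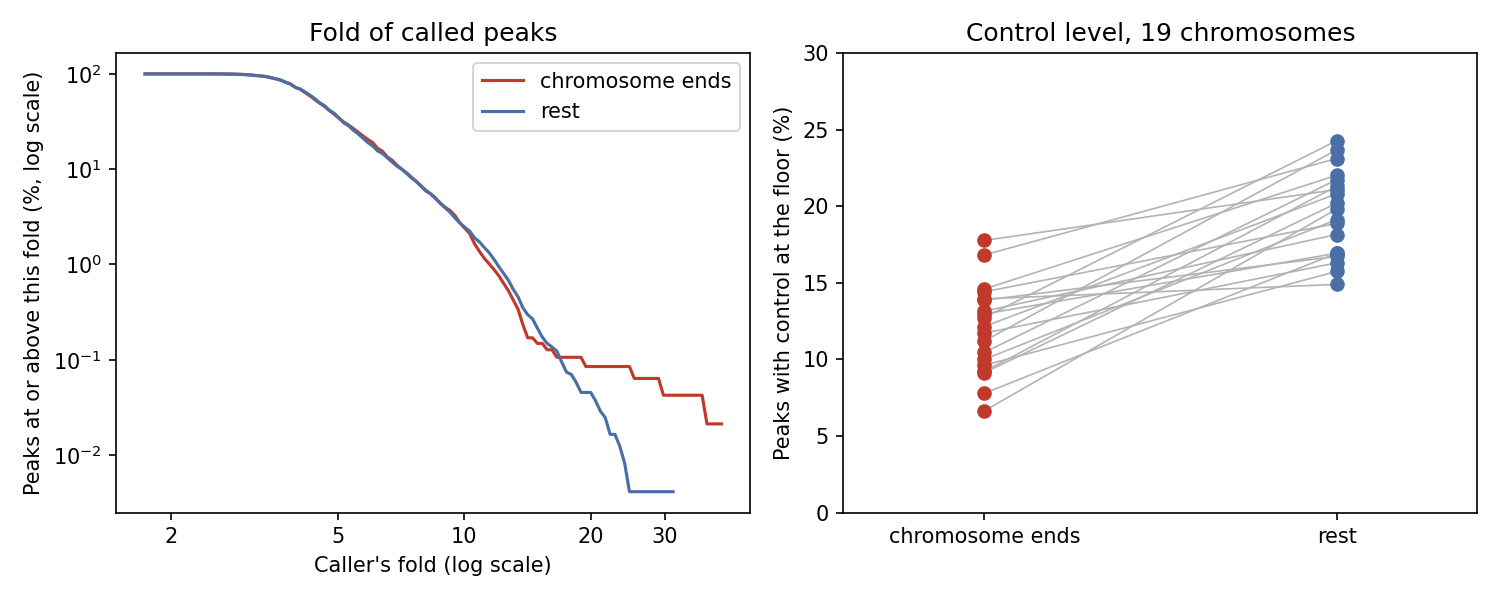
Left, share of peaks (y axis, %, log scale) at or above each caller's fold (x axis, log scale) in the ends and in the rest; the curves run close together up to a fold of 10, the ends then fall below the rest, with a 99th percentile of 11.5 against 12.0, and they lie above it at folds of 20 and more, where few peaks remain. Right, share of peaks whose control stayed at the floor (y axis, %) in both ends pooled and in the rest, for 19 chromosomes. Lines join the ends and the rest of a chromosome. The share is 6.64% to 17.8% in the pooled ends and 14.9% to 24.3% in the rest, and lower in the pooled ends on every chromosome.

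The peaks nearest to the 2 Mb limit varied in fold on both sides of it. The nearest inside were chr2:1999655-2000373 with a fold of 8.79 and chr1:54830286-54830591 with a fold of 3.68. The nearest outside were chr2:2000860-2001312 with a fold of 4.81 and chr20:45820649-45821045 with a fold of 7.38. The limit falls within a stretch of high density and is a choice of the counting.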

How the data were processed

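The data were 1 peak list in narrowPeak format from the YAB1-like ChIP library of replicate 1. The submitters' processing notes name Bowtie (0.12.7), SAMtools (0.1.18) and MACS2. Settings, control and genome build were not given in the sources used here. The deposited ratio is the caller's fold at the summit, the deposited −log10 values are its p-value and its q-value, and the deposited score was not used. These are the authors' own values, which served for ranking and filtering inside this list. Pileups were recovered from fold and p-value with the known scoring of MACS2: a whole pileup matched the p-value within 0.0001 on the −log10 scale for 100% of peaks. This step and the density ratio were checked on simulated data, scored by the same formula and with summits placed independently at random. That check covers the code only, since the peaks themselves are grouped and their scoring was assumed. Intervals are exact Poisson for counts, exact conditional for the ratio of densities, Wilson for shares and order statistics for medians, with the square-and-add method for differences. With 1 library and no replicate, no test was made.

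The members and lists were chosen with earlier results of these data known. Named were the 10 peaks of highest fold, the 5 of highest expected pileup, the 3 widest, the nearest and farthest outermost left peaks, those beside the 2 Mb limit, the 5 ends with most and with fewest peaks (ties kept), and the chromosome whose ends differed most in count. Strong pairs and long chains were named after their values were seen. The 46 alternatives varied the q-value threshold, the reach of an end, the chromosomes, merging, cutoffs, the pseudocount and the windows compared. Python 3.11.15, scipy 1.17.1 and statsmodels 0.14.6 were used.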

Additional observations from a re-analysis of the deposited data

Results flagged for a closer look

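The ends of chromosome 13 were outside the 38 ends and held ChIP signal above the control, as all called peaks do. They were picked for a look because none of the main comparisons used them; only the alternatives with chromosome 13 added did. The left end held 19 peaks in 2 Mb, 9.50 per Mb, against 50.8 per Mb in the rest of that chromosome, whereas none of the 38 ends was sparser than the rest of its chromosome. The right end held 159 peaks, 79.5 per Mb. The cause was not tested.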

How the results depend on the processing

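Of 40 alternatives to values with an interval, 26 stayed within it and 14 moved beyond it. The ratio of densities, 2.11 as reported, was 2.22 when only −log10 q-values from 10 upward were kept, 1.77 with ends of 1 Mb, 2.63 with ends of 5 Mb and 2.01 with chromosome 13 added. It was 2.11 after merging peaks within 500 bp. The number of ends denser than the rest, which has no interval, was 38 under 4 of 6 alternatives, 37 of 38 with ends of 1 Mb and 39 of 40 with chromosome 13 added. The difference in median fold was -0.0833 (-0.124 to -0.00882) with ends of 1 Mb. The difference in the share of strong peaks, -0.0518 percentage points as reported, was -0.642 (-2.28 to 1.20) among peaks with −log10 q-values from 10 upward. It was 1.49 (0.282 to 2.74) for a fold of at least 6. The difference in the share at the control floor, -7.41 points, was -4.59 among peaks with −log10 q-values from 10 upward. With ends of 1 and 5 Mb this difference was -5.89 and -9.37. Against dense windows of the rest it was -0.799 (-1.89 to 0.331). The difference in close neighbours, 0.532 points, was -1.05 (-2.83 to 0.840) with ends of 1 Mb. It was 2.87 (1.34 to 4.41) with neighbours within 5 kb and -1.66 (-3.09 to -0.207) against dense windows. For each of these the cause was not tested. No paired analysis was possible because only the ChIP library had a list. At the median pileup of 20 fragments, counting error alone spans 12.2 to 30.9, which limits the comparison of single peaks.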
